A study of Mus musculus with 3 samples.

Results

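The microRNAs of blood and vessel cells on these arrays were the products of 7 genes: miR-142, miR-223, miR-150, miR-486, miR-144, miR-451a and miR-126. They were chosen by name, as microRNAs that cultures of pure epithelium should lack, and both arms of each hairpin were taken. This gave 13 spots of 1265 microRNA spots on each array. Organoids, hollow epithelial structures grown from stem cells embedded in Matrigel, were cultured without serum but with R-spondin 1, EGF and Noggin. The wild-type group was grown from the healthy gut epithelium of wild-type animals. The tumour group came from intestinal tumours of ApcMin mice, which inherit 1 truncated allele of the tumour suppressor Apc. The treated group was the same kind of tumour organoid given 1 uM 5-Aza-CdR (decitabine), which blocks DNA methyltransferases. The ages of the animals, the time of treatment, and how many mice or cultures went into each RNA were not stated in the labels. Each group had 1 array, so no difference below has a replicate check or a p-value, and array and group cannot be told apart.

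A microRNA is cut from a hairpin RNA and guides Argonaute proteins to messenger RNAs, mainly through its seed, bases 2 to 8. miR-142 is made throughout the blood lineages, miR-223 in granulocytes and other myeloid cells, and miR-150 in mature lymphocytes, where it represses Myb. miR-144 and miR-451a come from 1 transcript of developing red cells, and miR-451a is unusual in being cut by Argonaute 2 instead of Dicer. miR-486 lies within Ank1, a gene of red cells and muscle, and is abundant in both. miR-126 lies within Egfl7 and marks endothelium, the lining of vessels. None of these cell types is epithelial, so their microRNAs serve as a check on what the cultures held and on what the array reads as signal in their absence.

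RefSeq (GRCm38.p6) held a mature sequence for 9 of the 13 spots, and 1 per gene is shown where it did, 5′ to 3′ with the seed in capitals, since these are the molecules whose presence or absence is at issue.
miR-142-3p: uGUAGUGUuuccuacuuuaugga
miR-223-3p: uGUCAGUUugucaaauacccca
miR-150-3p: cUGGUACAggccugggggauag
miR-144-3p: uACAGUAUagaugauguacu
miR-451a: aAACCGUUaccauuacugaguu
miR-126-3p: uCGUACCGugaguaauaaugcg
They lie on the plus strand at chr11:87756903-87756925, chrX:96242884-96242905, chr7:45121798-45121819, chr11:78073047-78073066, chr11:78073186-78073207 and chr2:26591402-26591423, in the order shown. The 9 sequences carried 9 different seeds, and none of these seeds was shared with any other of the 1738 mature microRNA entries of the RefSeq table. Mir144 and Mir451a are neighbours with 99 bases between their hairpins, and the hairpin of Mir451b overlaps that of Mir451a. Mir126a overlaps Egfl7 and Mir126b, and Mir486 overlaps Ank1 and a second hairpin, Mir3107, whose synonym is mir-486b. The array's miR-486-5p spot carries the names of miR-486-5p and miR-3107-5p together, so its signal cannot be assigned to either hairpin.

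Only miR-486-5p, miR-486-3p and miR-223-3p rose above the brightest negative control spot, and the same 3 spots were so on the wild-type, the tumour and the treated tumour array. This is 3 of 13 on each array, 23.1%, against 32.7%, 32.5% and 32.3% of all 1263 usable microRNA spots, in the same order. The limit was a spot median intensity of 42.8, 53.0 and 38.3 on those arrays. A less strict limit, the mean of the blank spots plus 2 SD, was passed by 8, 7 and 6 of the 13 spots, against 75.5%, 75.8% and 72.2% of all spots. Of the 24 negative control spots themselves, 23, 23 and 24 passed that blank limit, so a spot between the limits has a signal no different in size from that of a control. By both limits the share of these microRNAs was below that of all spots, but 13 spots are few and the gap was not tested. Base composition, described below, was not taken into account. The miR-142, miR-144, miR-451a, miR-150 and miR-126 genes, which include the pan-blood, lymphocyte, red cell and endothelial markers, had no product above the brightest control on any array.

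**Figure D1:**
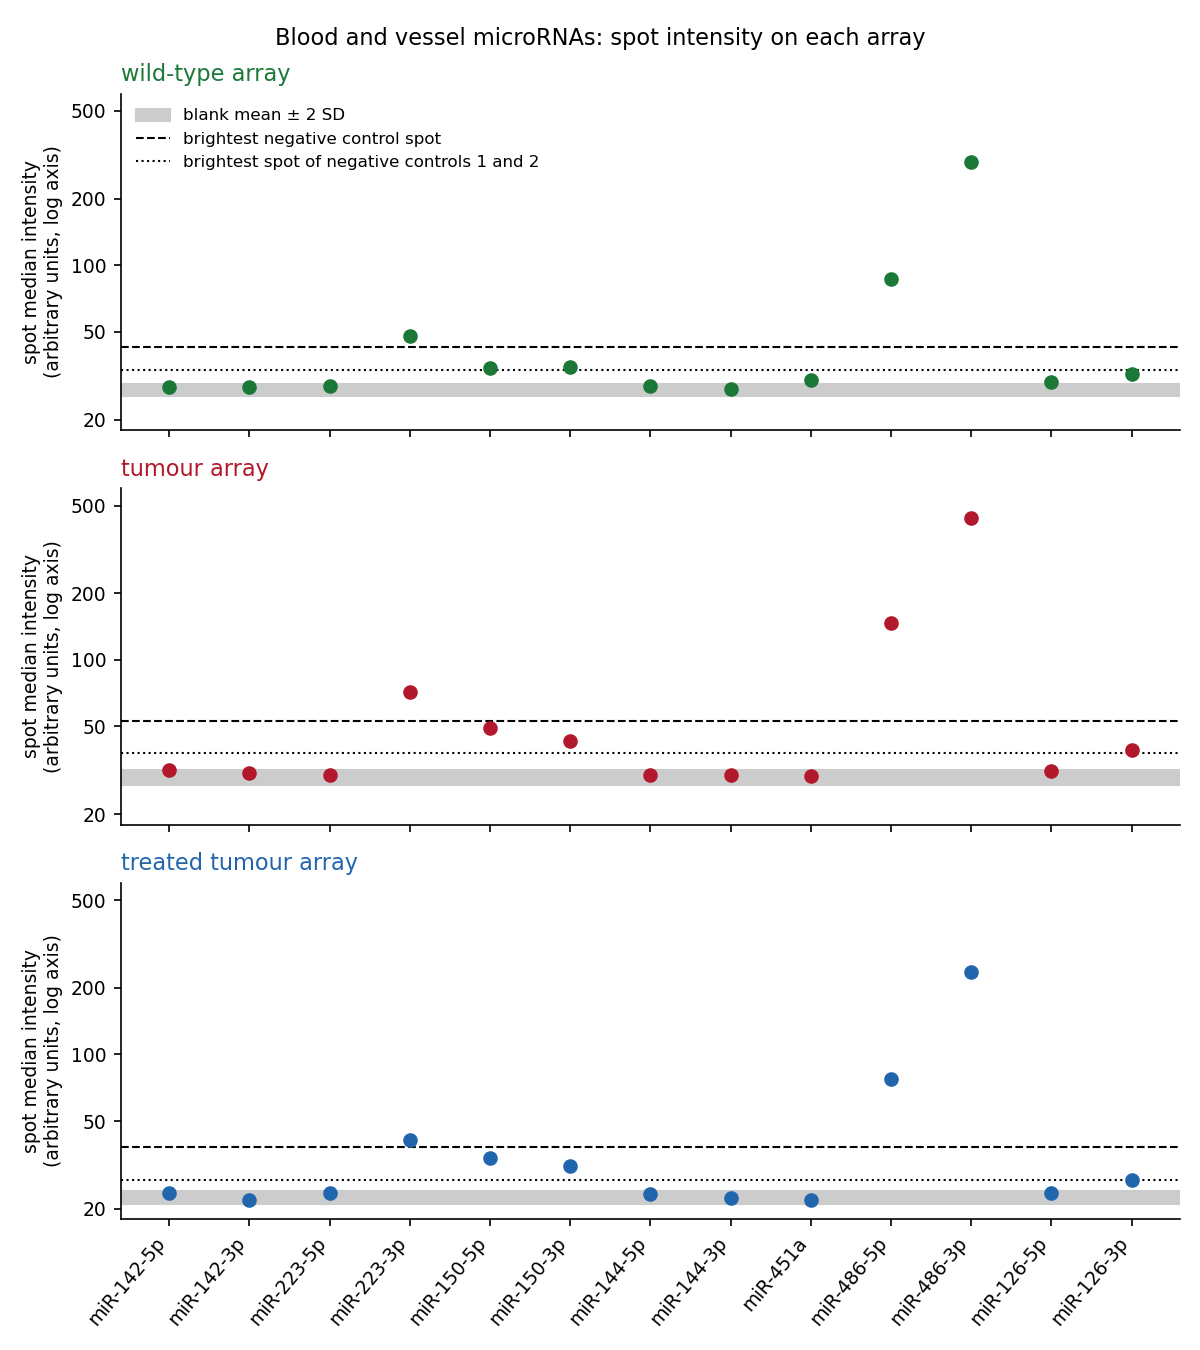
Spot median intensity (log axis, arbitrary units) of the 13 blood and vessel microRNA spots on each array. The grey band is the blank mean ± 2 SD, the dashed line the brightest of 24 negative control spots, and the dotted line the brightest of the 16 spots of negative controls 1 and 2. Only miR-223-3p, miR-486-5p and miR-486-3p lie above the dashed line, on all 3 arrays.

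The negative controls were of 3 kinds with 8 spots each, and they were not alike. Negative controls 1 and 2 lay between 28.0 and 33.8 on the wild-type array, while control 3 lay between 40.3 and 42.8. The corresponding ranges were 31.2 to 37.8 and 45.5 to 53.0 on the tumour array, and 24.6 to 27.2 and 32.3 to 38.3 on the treated array. Blank spots averaged 27.3 ± 0.901, 29.5 ± 1.14 and 22.7 ± 0.750 (SD of 1664 spots, trimmed by 5% at each end). The 8 spots of the first spike control had coefficients of variation of 5.78%, 10.1% and 6.77%, and those of the second spike control 4.77%, 6.98% and 6.97%. These measure the spread between like spots of an array and leave out all error between cultures, extractions and arrays.

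Among the red cell microRNAs, miR-486-3p gave the clearest signal. Its spot median intensity was 292.6 on the wild-type, 439.1 on the tumour and 236.2 on the treated array, which is 6.83, 8.28 and 6.16 times the brightest negative control of each. The miR-486-5p spot read 86.5, 146.9 and 77.1, or 2.02, 2.77 and 2.01 times that control. Both arms were thus highest on the tumour array and lowest on the treated array, as raw intensities. A spot named for the opposite arm of the other hairpin at that locus, miR-3107-3p, read 297.4, 346.5 and 186.1. It was also above the brightest control on all 3 arrays. No mature sequence was matched for miR-486-3p, so whether the miR-486-3p and miR-3107-3p spots read different molecules was not tested.

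The microRNAs that define red cells more narrowly did not follow. miR-451a read 30.2 on the wild-type, 29.9 on the tumour and 22.0 on the treated array, which relative to the blank mean is 2.90, 0.381 and -0.670. It passed the blank limit on the wild-type array only, where 5 of the 24 negative control spots were dimmer, and on the other arrays none was. miR-144-3p read 27.6, 30.3 and 22.3, and miR-144-5p read 28.5, 30.2 and 23.3. Neither arm of miR-144 passed the blank limit on any array, and no control spot was dimmer than miR-144-3p on any of them. The spot of miR-451b, from the hairpin that overlaps Mir451a, read 38.5, 44.8 and 32.7 and stayed under the brightest control throughout. Among the red cell members only the miR-486 spots were above the brightest control, and the defining pair of miR-144 and miR-451a lay within or close to the range of blank spots.

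Among the white cell microRNAs, miR-223-3p was the only spot above the brightest control, and by a narrow margin. It read 48.0 on the wild-type, 71.3 on the tumour and 40.9 on the treated array, which is 1.12, 1.34 and 1.07 times the brightest control. The margin depends on the limit taken: with the mean of the controls plus 3 SD it was lost on the wild-type and the treated array, and with each spot's own background column subtracted it was lost on the wild-type and the tumour array. The opposite arm, miR-223-5p, which is the less abundant product in myeloid cells, read 28.5, 30.1 and 23.7 and did not pass the blank limit on any array. miR-150-5p read 34.4, 49.2 and 33.8, or 80.3%, 92.8% and 88.3% of the brightest control, and had 16, 20 and 18 of the 24 controls below it. miR-150-3p read 34.8, 43.1 and 31.4 and had 16 controls below it on each array. Both arms of miR-150 were therefore brighter than all spots of negative controls 1 and 2 and dimmer than the brightest of control 3, on all 3 arrays.

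miR-142 is the member expected wherever blood cells of any lineage are present. miR-142-3p read 28.2, 30.8 and 22.0, with 1 control spot dimmer on the wild-type array and no other, and it passed the blank limit nowhere. miR-142-5p read 28.0, 31.9 and 23.6 and passed the blank limit only on the tumour array, at 2.14 blank SDs above the mean.

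The endothelial miR-126-3p read 32.2 on the wild-type, 39.2 on the tumour and 27.2 on the treated array, which is 4.89, 9.77 and 4.49 above the blank mean. It passed the blank limit on all 3 arrays but reached only 75.3%, 74.0% and 70.9% of the brightest control, with 14, 16 and 15 of the 24 controls below it. miR-126-5p read 29.6, 31.4 and 23.6 and passed the blank limit on the wild-type array only. Taking the 13 spots by their record over the arrays, 6 passed the blank limit on all 3, 3 on some (miR-451a, miR-142-5p and miR-126-5p) and 4 on none (miR-142-3p, miR-144-3p, miR-144-5p and miR-223-5p). Of all 1263 usable spots, 817 passed it on all 3 arrays, 257 on some and 189 on none, so 30.8% of the members never passed it against 15.0% of all spots.

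Base composition moved with signal across the array as a whole, and its part in the values above was not tested. Of 1263 usable spots, 1031 matched a mature RefSeq sequence. On the wild-type array the share above the brightest negative control was 11.6% of 181 spots whose microRNA had under 40% G and C bases, 23.2% of 310 spots at 40% to under 50%, 29.3% of 338 spots at 50% to under 60%, and 74.3% of 202 spots at 60% and over. The tumour array gave 12.2%, 23.2%, 28.4% and 74.3%, and the treated array 12.2%, 22.6%, 29.0% and 72.8%. Neither miR-486 arm had a matched sequence, nor did miR-126-5p or miR-150-5p. The members with the clearest signal are therefore missing from this comparison. The 9 sequenced members lay mostly at the low end. miR-144-3p (30.0%), miR-144-5p (30.4%), miR-142-5p (33.3%), miR-142-3p (34.8%) and miR-451a (36.4%) were all in the lowest class. miR-223-3p (40.9%), miR-223-5p (43.5%) and miR-126-3p (45.5%) were in the next class, and miR-150-3p (63.6%) in the highest. On each array the members above the brightest control were 0 of 5 in the lowest class and 1 of 3 in the next, miR-223-3p. In the highest class they were 0 of 1, miR-150-3p.

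**Figure D2:**
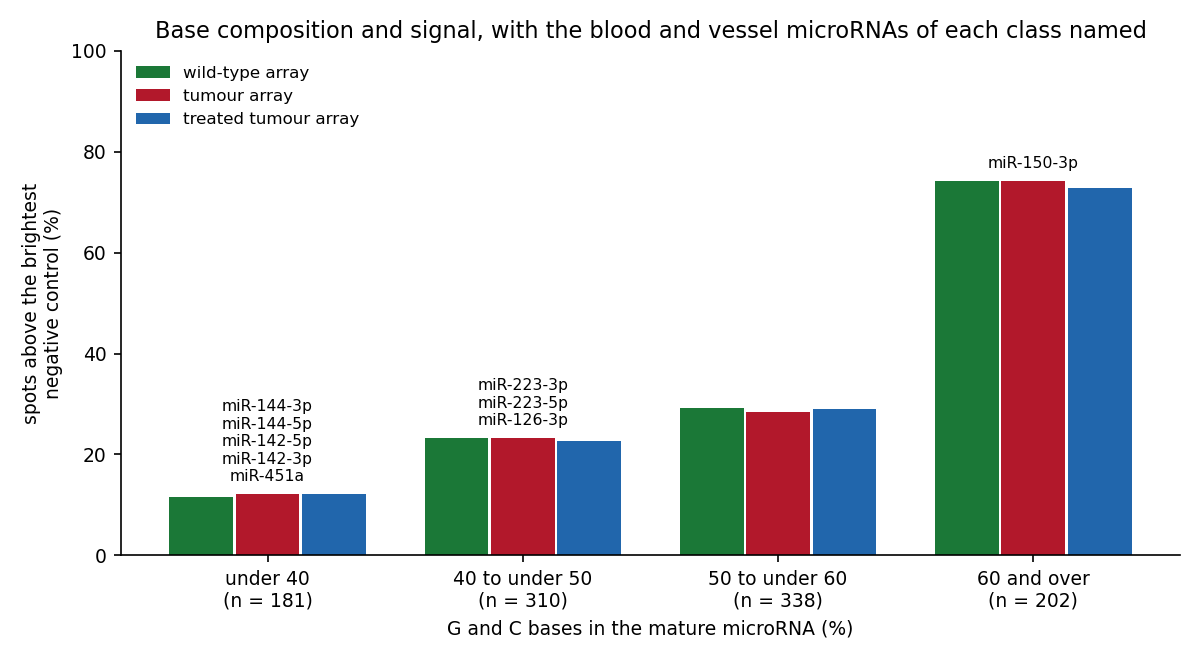
Percentage of microRNA spots above the brightest negative control of their array, by the share of G and C bases in the mature RefSeq sequence, with the sequenced blood and vessel microRNAs written above their class. On the wild-type array the share goes from 11.6% in the lowest to 74.3% in the highest class, and 5 of the 9 sequenced members are in the lowest. Neither miR-486 arm had a matched sequence, so neither is shown.

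Lists of other microRNAs set these counts in context. They were drawn up for the same cell types and for the epithelium and its stroma, with earlier results of these arrays known. Epithelial microRNAs (miR-192, miR-194, miR-215 and the miR-200 family) were above the brightest control at 14 of 17 spots on the wild-type, 11 on the tumour and 12 on the treated array, so microRNAs of the labelled tissue were present. miR-194-5p, miR-192-5p and miR-200b-3p were the brightest of these on the wild-type array, at 3483, 2210 and 1335 above blank. Over all spots the share above the brightest control was 32.7%, 32.5% and 32.3%, in the same order. Further microRNAs known from vessel cells reached 1, 1 and 2 of 10 spots. On the wild-type array this was miR-139-3p, whose opposite arm, miR-139-5p, stayed below the control on every array. Further microRNAs of white cells reached 2, 3 and 5 of 16, or 12.5%, 18.75% and 31.25%. Of these, miR-181a-5p and miR-181b-5p were above the brightest control on all 3 arrays. miR-342-3p was so on the tumour and the treated array, and miR-146a-5p and miR-155-5p on the treated array only. MicroRNAs that are abundant in red cells but also made by most other cells, such as miR-16-5p, miR-191-5p and miR-25-3p, reached 7 of 13 on every array. The stromal microRNAs (miR-143, miR-145, miR-199 and miR-214) reached 3, 4 and 3 of 9, or 33.3%, 44.4% and 33.3%, near the share of all spots. Those on the wild-type array were miR-214-3p, miR-143-5p and miR-199a-5p. miR-143-3p, miR-145a-5p and miR-199a-3p stayed below the brightest control on every array. The blood and vessel microRNAs thus stood at 3 of 13, between the vessel and the stromal lists on the wild-type array. In bulk RNA, fewer cells of a type and less of a microRNA per cell cannot be told apart.

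**Figure D3:**
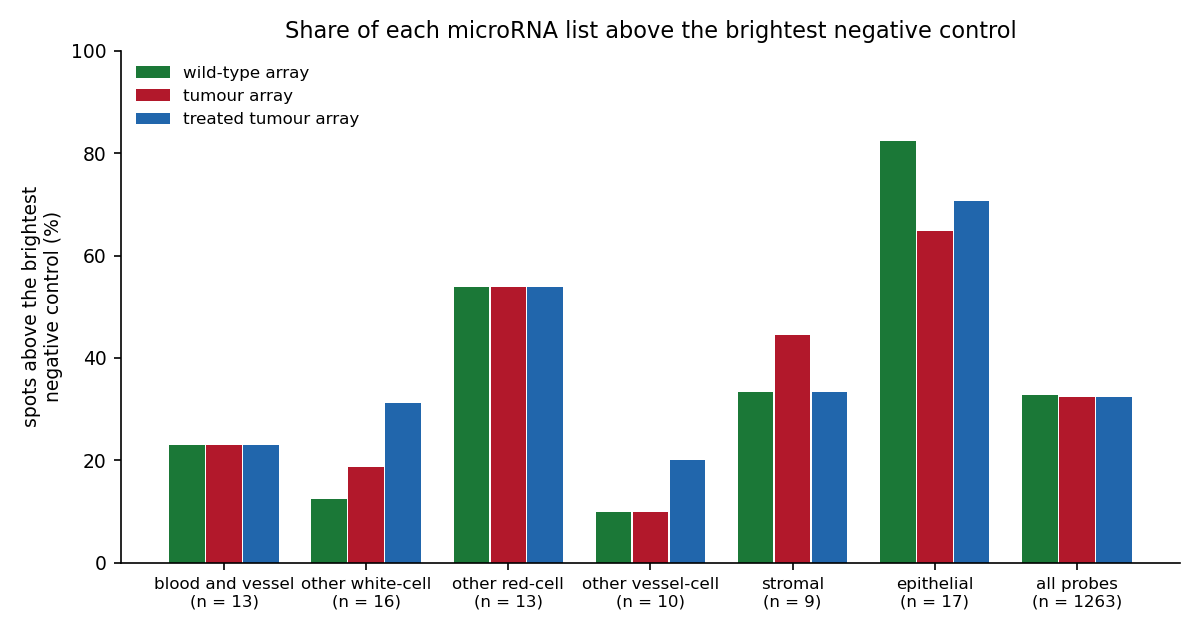
Percentage of spots above the brightest negative control of their array, for the blood and vessel microRNAs, 5 other lists and all usable microRNA spots; n is the number of spots. The blood and vessel microRNAs are at 23.1% on each array and the epithelial list at 82.4%, 64.7% and 70.6%.

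The series was designed to compare tumour with wild-type organoids. Between them no blood or vessel microRNA differed 2-fold, against 2.6% of the 1040 spots compared, and the sizes were small. The dim spots had little room to reach 2-fold, because of the offset described in the next paragraph. Differences are log2 differences of normalized signals, tumour minus wild type, for the 9 spots that passed the blank limit on at least 1 of the arrays compared. They were higher in tumour organoids at 7 of 9 spots, with a median of 0.06, and over all spots 51.0% were higher, with a median of 0.002. That count depended on the scaling: 4 of 9 were higher, with a median of -0.03, when arrays were scaled to the median of the probes detected on all of them, where 31.7% of all spots were higher. With the per-spot background column 9 of 9 were higher, against 53.4% of all spots. The largest were those of miR-486-5p at 0.24, miR-150-5p at 0.18 and miR-223-3p at 0.15, and miR-486-3p was at 0.03. miR-150-3p and miR-126-3p stood at 0.06 each. All 9 lay between the 5th and the 95th percentile of all spots compared (-0.46 and 0.44). The spot of miR-3107-3p, from the hairpin overlapping Mir486, was at -0.38, but it had no settled direction: it was at 0.02 and 0.14 with the median scalings, 0.10 with the per-spot background column and 0.22 with the spike controls.

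The raw order, in which most of these spots were brightest on the tumour array, was shared by the array as a whole. The median signal above blank over all spots past the blank limit was 11.7 on the wild-type, 16.1 on the tumour and 12.1 on the treated array. The spots of miR-451a, miR-126-5p and miR-142-5p passed the blank limit on only 1 of the 2 arrays. Their differences, -0.07, -0.02 and 0.02, took the opposite sign or fell to 0 under other settings, so no direction is read from them. Their signs are still included in the counts of higher and lower spots, here and in the comparisons below. An offset of 50 is added to every signal, which draws the differences of dim spots towards 0. miR-150-5p, at 7.03 above blank on the wild-type and 19.7 on the tumour array, thus came to 0.18. The lack of 2-fold differences therefore says little about dim spots, here and in the comparisons below. With the blank mean subtracted and no offset, miR-150-5p was at 0.99, miR-126-3p at 0.54, miR-223-3p at 0.42 and miR-486-3p at 0.03. In the authors' deposited values miR-150-5p was at 1.05, past 2-fold, from listed values of 15.1 in wild-type and 31.2 in tumour organoids, both under the brightest negative control as spots.

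The comparison of treated with untreated tumour organoids asks what exposure to 5-Aza-CdR did to the same signals. All 7 spots compared were lower in treated organoids, with a median of -0.05, while 44.6% of all 1013 spots were higher and the median over all was -0.006. No member reached 2-fold, against 0.0987% of all spots. miR-486-5p was at -0.34 and miR-486-3p at -0.28, both beyond the 5th percentile of all spots (-0.23), and miR-223-3p was at -0.20. That percentile includes many dim spots, whose differences the offset draws towards 0, so a bright spot passes it more easily. Only 427 of the 1013 spots were above the brightest control on either array, and no percentile was taken for those alone. miR-3107-3p, at -0.27, was lower too, as were both miR-486 arms, and all 3 spots were lower under every setting tried. These spots may read shared molecules of 1 locus, so they are not separate observations. The dim spots were nearer 0, with miR-150-5p at -0.05, miR-126-3p at -0.05, miR-142-5p at -0.01 and miR-150-3p at -0.006, the last as low as the median of all spots. With the blank mean subtracted miR-142-5p was at 0. The 7 spots include both arms of miR-486 and of miR-150, so they are not 7 separate observations. miR-451a, miR-126-5p and the 4 spots never past the blank limit had no value here. Scaling to the spike controls moved the median of all spots to 0.56 and turned 5 of the 7 members positive (3 of 7 with the median of probes detected on all arrays, where 63.3% of all spots were higher). Under spike scaling 6 of the 7 still lay below the median of all spots.

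Against wild type, treated tumour organoids were higher at 3 and lower at 5 of 8 spots, with a median of -0.04, and 47.4% of all 1027 spots were higher. No member differed 2-fold, against 2.63% of all spots. miR-486-3p was at -0.26, miR-486-5p at -0.10, miR-223-3p at -0.05, miR-126-3p at 0.01 and miR-150-5p at 0.13. Under spike scaling all 8 were positive, with the median of all spots at 0.67. These 3 comparisons share arrays pairwise, so their directions are not separate observations.

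**Figure D4:**
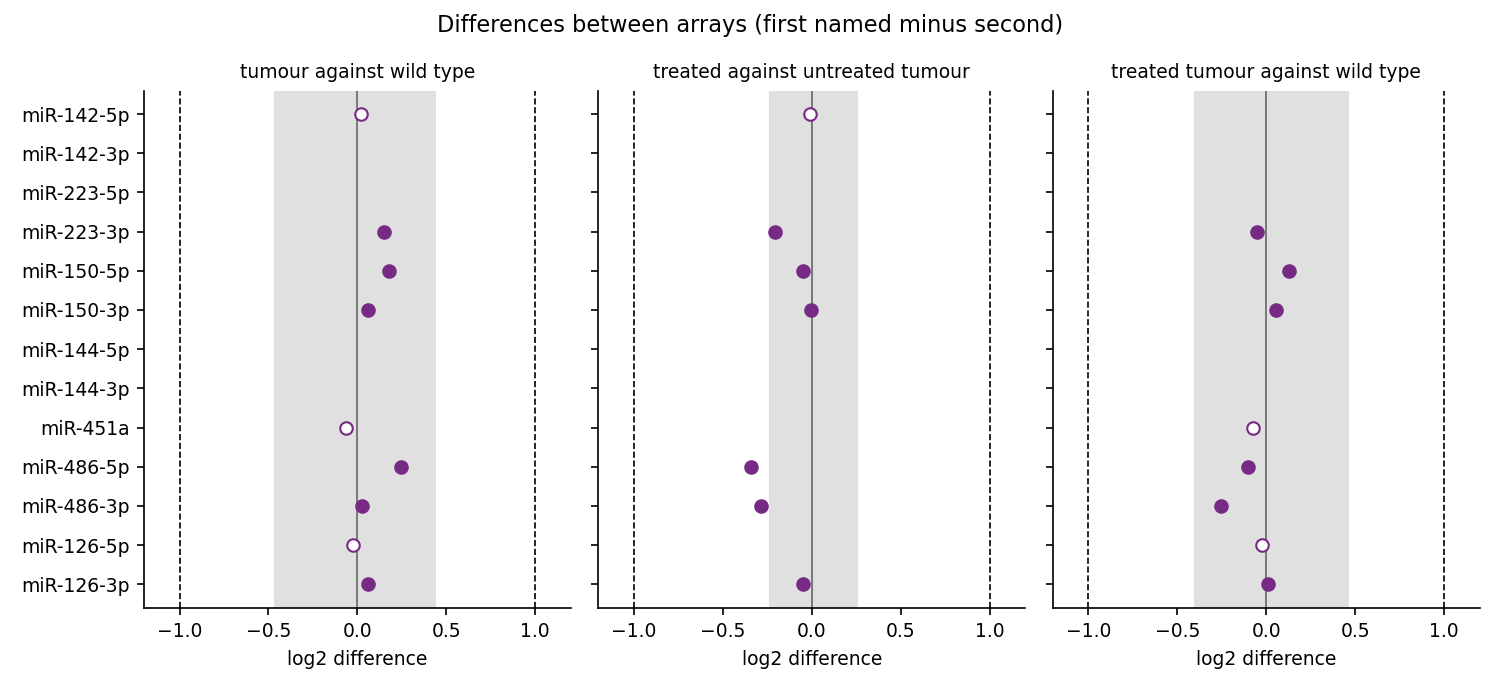
Log2 difference of normalized signal (first named minus second) for the blood and vessel microRNAs in the 3 comparisons. Filled points passed the blank limit on both arrays and open points on 1, the grey band runs from the 5th to the 95th percentile of all spots compared, and dashed lines mark 2-fold. No point reaches 2-fold, and miR-486-5p and miR-486-3p lie left of the band in treated against untreated organoids.

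The size of each difference depended on the scaling. For miR-486-3p, tumour minus wild type ranged from 0.03 to 0.56 over the settings, and for miR-486-5p from 0.24 to 0.64. The range was 0.02 to 0.58 for miR-223-3p and 0.007 to 1.05 for miR-150-5p. In treated against untreated organoids miR-486-3p ranged from -0.72 to -0.13 and miR-486-5p from -0.71 to -0.01, so neither arm changed direction over these settings. miR-223-3p (-0.80 to 0.24) and miR-150-5p (-0.42 to 0.48) changed direction, under spike scaling and with the per-spot background column.

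**Figure D5:**
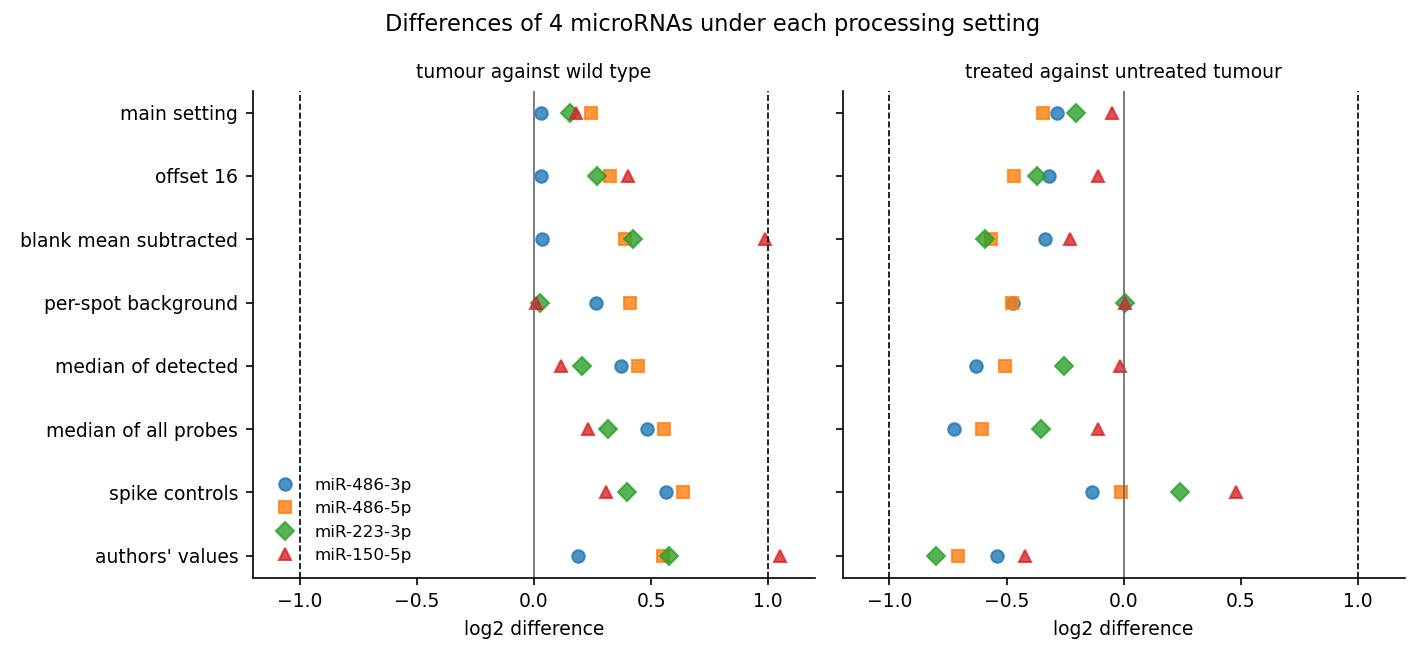
Log2 difference of miR-150-5p, miR-223-3p and both miR-486 arms under the main setting and 7 alternatives, for tumour against wild type (left) and treated against untreated tumour (right), with dashed lines at 2-fold. Both miR-486 arms stay at or right of 0.03 on the left and left of 0 on the right, and miR-150-5p passes 2-fold only in the authors' values.

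The spots most like the 3 brightest members were found among 374 others above the brightest control on all arrays, by the distance between their 3 centred log2 values. The nearest to miR-486-3p was miR-5110 (distance 0.04), to miR-486-5p miR-1188-3p (0.07) and to miR-223-3p miR-3572-3p (0.01). With 3 arrays such likeness is common: 43 spots lay within 0.1 of miR-223-3p and 6 within 0.1 of each arm of miR-486.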

How the data were processed

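RNA was isolated by mirVana and carried a Hy5 label, per the labels' protocols, and arrays were read at 635 nm at 3 gains, per the file headers. The deposited intensity is a spot's median brightness with no background subtracted, 1 per spot, with flags per gain. The authors' deposited value table was found from the values to be that intensity minus the blank level, multiplied by 1 factor per array. The factors were 2.14 (wild-type), 1.58 (tumour) and 2.08 (treated array), and the listed values are linear and not centred, with a median of 25. The sources used here name neither array platform nor scanner software.

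Groups came from sample titles. The 2 microRNA spots flagged bad on any array were left out. limma 3.58.1 (R 4.3.3) corrected background by normexp, with parameters from the blank spots trimmed by 5% at each end and an offset of 50, and the remaining spots were quantile normalized and put on the log2 scale. The per-spot background column was an alternative only, since it follows its own spot's signal (r = 0.99, 0.99 and 0.98 on the log scale). A difference was counted at 2-fold among spots above the blank mean plus 2 SD on at least 1 array compared. With 1 array per group no test was run, and the number of arrays limits the precision. Every member spot is named, and of each other list, by rule, at most the 3 brightest above the control on the wild-type array. Further spots of the white-cell, vessel and stromal lists, and miR-451b, were named outside that rule. The miR-3107-3p spot was chosen after its values were seen. The members and lists were chosen with earlier results of these data known. The steps were tested on simulated data, with recovery of known changes required only of bright spots. Of the members only miR-486-3p was that bright on the wild-type array, so the test did not cover the others. Python 3.11.15 (numpy 2.4.6, pandas 2.3.3, matplotlib 3.10.9) was used for the rest.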

Additional observations from a re-analysis of the deposited data

How the results depend on the processing

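The miR-486 arms exceeded the limit on all 3 arrays under each alternative to the brightest-control limit that kept both spots; counts of 3 became 2 or 3 with the second brightest control, the controls' mean plus 3 SD, own background subtracted, or without the shared miR-486-5p spot. With negative controls 1 and 2 only, an alternative chosen after seeing the data, the counts were 5 (wild-type), 6 (tumour) and 5 (treated array) of 13, against 47.8%, 49.2% and 51.8% of all spots. Counts past the blank limit (8, 7 and 6) were 3, 3 and 3 with the brightest control as limit and 2, 2 and 1 with untrimmed blanks. Without trimming, the limit rose from 29.1, 31.7 and 24.2 to 71.9, 109.1 and 112.2, so the trimmed limit leaves out some bright blank spots. The untrimmed limit was passed by 19.0%, 18.1% and 14.1% of all spots, and miR-486-5p did not pass it on the treated array. With 3 SD or the authors' listing the counts stayed within 1.5 times. Counts of 2-fold members stayed at 0 in all comparisons and alternatives except the authors' values, where 1 member (miR-150-5p, tumour against wild type) passed. Among single differences, 7 of 60, 11 of 48 and 11 of 54 alternative values took the opposite sign, in the order of the comparisons; the cause was not tested. The alternative at other scan gains was not run, since the files give 1 intensity per spot. No paired analysis was possible because each group has 1 array. Dim signal over background limits 10 of the 13 spots.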
